A study of Mus musculus with 4 samples.

Results

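The 39 genes described here drive cells through the cell cycle and copy their DNA. They are a given list of cyclins, replication factors, enzymes of deoxynucleotide synthesis, mitotic kinases and spindle proteins, matched by symbol to the deposited tables, and 39 of 39 were present among 23946 genes. Bulk RNA-seq was performed on calvarial (skull vault) bones of C57BL/6J mice at postnatal day 21. Its purpose was to compare frontal bone, which derives from neural crest, with parietal bone, which derives from mesoderm, in wild-type mice and in mice with 1 working copy of Twist1, a transcription factor whose loss closes the coronal suture early. There were 4 libraries, 1 each for wild-type frontal, wild-type parietal, Twist1+/- frontal and Twist1+/- parietal bone, all of the same strain and age. The study's methods give the number of mice for each strain and its text speaks of replicates, but neither says how many mice or replicates stand behind each of the 4 deposited columns, and each column is treated here as 1 library. The text describes the sequenced parietal bone as including pericranium, bone plate and dura mater. With 1 column a group there was no replicate check, so no standard deviation between samples and no p-value is given, and each difference is one between libraries.

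Twist1 itself was at 59.0 FPKM (the number of sequenced fragments divided by gene length and by library size) in wild-type frontal bone and at 30.4 FPKM in Twist1+/- frontal bone. In parietal bone it was at 52.5 FPKM in the wild type and at 50.7 FPKM in the one labelled Twist1+/-. On the deposited scale the log2 ratio to the wild type was thus -0.96 in frontal and -0.05 in parietal bone. Twist1 has a GC-rich transcript (59.7% GC), and with the median log2 ratio of genes of similar base composition subtracted, as described for the members further on, these ratios were -0.99 and -0.60. Since the deposited parietal levels were nearly equal, that library is called the library labelled Twist1+/- parietal bone throughout, and each direction drawn from it rests on the label. Of the 23946 genes, 13094 to 14058 a library reached 1 FPKM, and the 10 most abundant genes held 23.3% to 30.6% of all FPKM. The study states mean read numbers over its libraries, whereas the reads of any single library were neither stated nor recoverable from FPKM, so no counting error is given. In bulk tissue, fewer cells of a type and less RNA per cell cannot be told apart.

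Cells that divide pass from a growth phase into S phase, in which origins of replication loaded with the MCM helicase are fired and the genome is copied, and then into mitosis, in which condensed chromosomes are pulled apart by the spindle. E2F factors switch on the genes of replication before S phase, and a later wave of mitotic genes is switched on through promoter elements bound by the DREAM and MuvB complexes. Most cells of mature bone, such as osteocytes, do not divide, whereas red marrow and growing periosteum and sutures hold many cells that do, and these genes together are a common measure of proliferation.

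The promoters are shown because the S phase and mitotic members are known for different control elements. Of the 39 members, 32 had a promoter in the RefSeq table (GRCm38.p6), each covering 250 bases before and 50 bases after the gene start. Both strands were searched for 4 E2F forms (TTTCCCGC, TTTGGCGC, TTTCGCGC and TTTGCCGC), for the cell cycle homology region (CHR, TTTGAA) and for the CCAAT box, and matches of different elements were counted also where they overlapped. An E2F form was found in 7 of 32 members (Cdc6, Cdk1, Cdt1, Mcm3, Mcm5, Mcm6 and Mcm7), against 2.26% of 32851 promoters of the same length. It was present in 6 of 13 members of replication and deoxynucleotide synthesis and in 0 of 15 mitotic members (the kinases, checkpoint, chromosome, centromere and spindle groups). The CHR was found in 15 of 32 members against 17.9% of all promoters, with 2 of 13 in the replication groups and 11 of 15 in the mitotic groups. CCAAT was found in 25 of 32 members against 37.4% of all promoters. This element was found in 9 of 13 members of the replication groups and in 13 of 15 of the mitotic groups. A member counted when any of its promoter windows matched, whereas the shares of all promoters were taken over single windows, so these are not strictly alike. The counts describe these windows and are no measure of binding. No entry was present for Mcm4, Ccna2, Aurkb, Kif20a, Ccne2, Cdc25c and Tpx2. Printed here are the 250 bases before the start of the 6 members that differed by more than 3-fold between the wild-type bones, and then of Cdk1 and Ccnb1, the members with an entry that differed least, 5′ to 3′ along the gene with the matches in capitals (those of Plk1 to the CHR and of Mcm3 to an E2F form reach into or lie in the 50 bases after the start):
Mki67, chr7:135716380-135716629, minus strand: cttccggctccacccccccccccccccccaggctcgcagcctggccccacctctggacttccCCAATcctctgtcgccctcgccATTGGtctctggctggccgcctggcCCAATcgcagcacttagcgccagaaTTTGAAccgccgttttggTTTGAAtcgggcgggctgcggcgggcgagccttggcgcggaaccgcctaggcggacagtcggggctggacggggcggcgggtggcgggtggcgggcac
Plk1, chr7:122159185-122159434, plus strand: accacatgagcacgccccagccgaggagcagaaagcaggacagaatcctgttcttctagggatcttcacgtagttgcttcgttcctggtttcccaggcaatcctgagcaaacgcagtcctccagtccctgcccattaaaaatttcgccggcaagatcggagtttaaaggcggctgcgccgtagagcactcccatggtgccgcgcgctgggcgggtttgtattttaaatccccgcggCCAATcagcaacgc
Cdc6, chr11:98907901-98908150, plus strand: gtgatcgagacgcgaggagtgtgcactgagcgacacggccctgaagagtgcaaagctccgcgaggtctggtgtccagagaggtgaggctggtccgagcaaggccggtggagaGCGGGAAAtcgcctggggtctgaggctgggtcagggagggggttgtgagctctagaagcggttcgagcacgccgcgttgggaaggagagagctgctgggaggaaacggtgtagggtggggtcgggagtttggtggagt
Rrm2, chr12:24708004-24708253, plus strand: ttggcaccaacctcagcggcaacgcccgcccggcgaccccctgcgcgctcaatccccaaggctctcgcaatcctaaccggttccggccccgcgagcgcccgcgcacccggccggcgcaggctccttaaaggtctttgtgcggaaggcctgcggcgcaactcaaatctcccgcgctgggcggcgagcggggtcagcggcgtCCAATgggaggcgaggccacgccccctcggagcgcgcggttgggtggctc
Mcm5, chr8:75109259-75109508, plus strand: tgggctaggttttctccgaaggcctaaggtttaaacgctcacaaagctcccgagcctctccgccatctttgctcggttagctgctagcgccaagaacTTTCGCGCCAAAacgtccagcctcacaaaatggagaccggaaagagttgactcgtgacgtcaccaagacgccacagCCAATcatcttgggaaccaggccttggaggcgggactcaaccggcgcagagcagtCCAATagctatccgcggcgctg
Mcm3, chr1:20820313-20820562, minus strand: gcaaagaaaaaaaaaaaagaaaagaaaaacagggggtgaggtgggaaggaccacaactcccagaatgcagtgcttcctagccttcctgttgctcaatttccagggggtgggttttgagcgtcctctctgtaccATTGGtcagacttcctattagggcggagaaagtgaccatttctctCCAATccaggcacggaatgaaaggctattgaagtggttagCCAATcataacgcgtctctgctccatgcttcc
Cdk1, chr10:69352913-69353162, minus strand: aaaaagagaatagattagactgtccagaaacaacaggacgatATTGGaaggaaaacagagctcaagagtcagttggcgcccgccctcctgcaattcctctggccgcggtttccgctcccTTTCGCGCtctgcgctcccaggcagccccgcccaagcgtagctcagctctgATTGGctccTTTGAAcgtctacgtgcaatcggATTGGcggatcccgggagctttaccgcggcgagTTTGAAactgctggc
Ccnb1, chr13:100786487-100786736, minus strand: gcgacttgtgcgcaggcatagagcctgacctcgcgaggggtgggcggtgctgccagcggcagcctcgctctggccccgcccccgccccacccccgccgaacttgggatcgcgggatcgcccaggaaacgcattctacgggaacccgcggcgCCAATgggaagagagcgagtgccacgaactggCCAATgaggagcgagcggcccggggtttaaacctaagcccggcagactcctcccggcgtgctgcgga
Mki67 carries 2 CHR matches, at positions -116 and -98 from the start, and Cdk1, with the smaller difference, carries 2 as well and an E2F form. Members with and without these matches were thus found at both ends of the range of differences.

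All 39 members were highest in wild-type frontal bone (38 with the libraries scaled to the same median ratio). Among all 14760 genes that reached 1 FPKM in a library and could be ordered, 27.0% were highest there. Wild-type parietal bone was the lowest library for 21 members, the library labelled Twist1+/- parietal for 17, and Twist1+/- frontal bone for Cenpa only. Among the same 14760 genes, 35.1%, 27.0% and 16.7% were lowest in these libraries. The count of 17 went to 8 with each library scaled to the same Gapdh level and to 9 with a trend in base composition, described further on, subtracted. The commonest full order was wild-type frontal, Twist1+/- frontal, labelled Twist1+/- parietal, wild-type parietal (16 members, against 11.1% of those genes). The same order with the parietal libraries exchanged came next (11 members, against 6.90%). The median level of the members was 25.9 FPKM in wild-type frontal, 17.6 in Twist1+/- frontal, 11.9 in wild-type parietal and 14.9 FPKM in labelled Twist1+/- parietal bone, and their summed levels were 1519, 974, 764 and 817 FPKM in that order. Where 4 levels follow each other without names, they are FPKM in this same order of libraries.

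**Figure D1:**
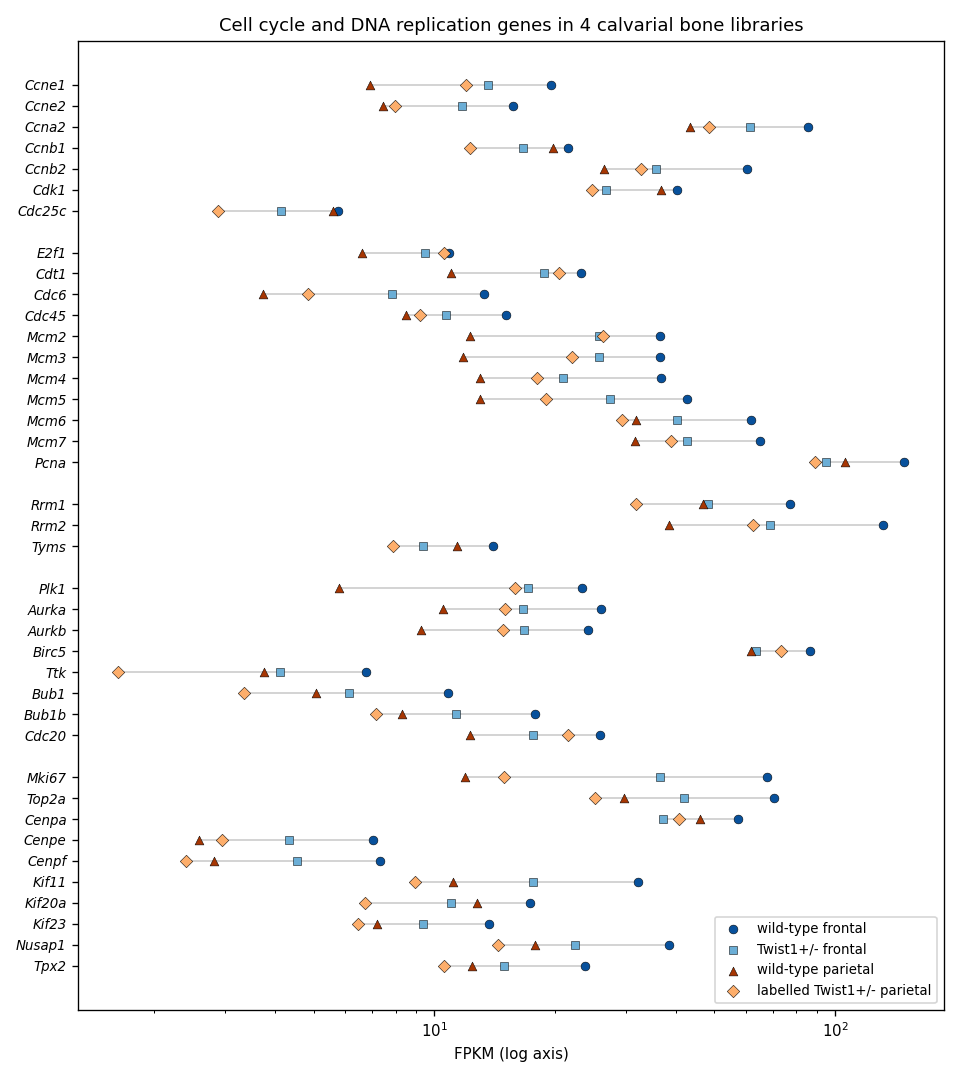
Level of each of the 39 members in the 4 libraries, grouped by role from top (cyclins and Cdk1, replication, deoxynucleotide synthesis, mitotic kinases and checkpoint, chromosome and spindle); the x axis is FPKM on a log scale and each point is 1 library. The dark blue circle of wild-type frontal bone is the rightmost point in all 39 rows, and the lowest point is a parietal library in all rows but Cenpa.

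Between the wild-type bones, all 39 members were lower in parietal than in frontal bone, where 50.5% of the 14214 measured genes (at least 1 FPKM in the higher library) were lower. The median log2 ratio of the members was -1.08, or 2.12-fold, against -0.01 for all measured genes, and it ran from -2.50 for Mki67 to -0.04 for Cdc25c. The study's text combines a fold change above 3 with a p-value cut, and a figure legend also gives 3 on the log2 scale. Only a 3-fold cut was used here, without a p-value. Past 3-fold were 6 members (Mki67, Plk1, Cdc6, Rrm2, Mcm5 and Mcm3), against 9.20% of measured genes in that direction. Past 2-fold were 23 of 39, against 15.6%, and past 1.5-fold 31, against 25.6%. Mcm3, at 3.09-fold, was nearest the 3-fold cut and went under it with a pseudocount of 1 FPKM. With each library scaled to the same Gapdh level 16 members were past that cut. With each other scaling or subtraction run, all 39 stayed lower in both this comparison and the next. Between the genotypes in frontal bone the members also lay on 1 side: 39 of 39 were lower in Twist1+/- bone, where 55.4% of 14341 measured genes were. The size was smaller and far more even, with a median of -0.62 (1.54-fold) against -0.04 for all measured genes and a range of -0.94 (Rrm2) to -0.21 (E2f1). No member was past 3-fold, for which the share of measured genes was 0.725% lower and 3.17% higher, and none was past 2-fold, against 2.20% lower, while 23 of 39 were lower by more than 1.5-fold, against 7.23%.

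In parietal bone the members divided. In the library labelled Twist1+/-, 21 of 39 were higher than in the wild type, against 46.9% of 13914 measured genes, and 18 were lower. Scaled to the same Gapdh level, 31 were higher and 8 lower. The median log2 ratio was 0.12 against -0.06 for all measured genes, with a range from -1.21 (Ttk) to 1.46 (Plk1). No member was past 3-fold, against 2.94% of genes lower and 5.25% higher. Past 2-fold were Mcm2 and Plk1 among the higher, against 10.8%, and Ttk among the lower, against 9.40%. Past 1.5-fold were 9 members higher, against 21.2% of genes, and 5 lower, against 23.8%. The standard deviation of the log2 ratio across members was 0.61 in this comparison and 0.16 between the genotypes in frontal bone. Across all measured genes above 0 FPKM in both libraries it was larger in each, at 1.06 and 0.64. With the trend in base composition subtracted, the members' values were 0.44 and 0.14.

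In the libraries labelled Twist1+/-, 33 of 39 members were lower in parietal than in frontal bone, against 52.4% of 14305 measured genes. Their median log2 ratio was -0.33 against -0.03 for all measured genes, with none past 3-fold (3.24% of genes were lower by that much) and 2 past 2-fold, Ttk and Mki67, against 8.92%. Lower by more than 1.5-fold were 11 members, against 18.9%. The 6 higher members were E2f1, Cdt1, Mcm2, Birc5, Cdc20 and Cenpa. The 4 comparisons share libraries with each other, and wild-type frontal bone, where the members were highest, enters 2 of them, so they are not separate evidence of 1 direction.

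**Figure D2:**
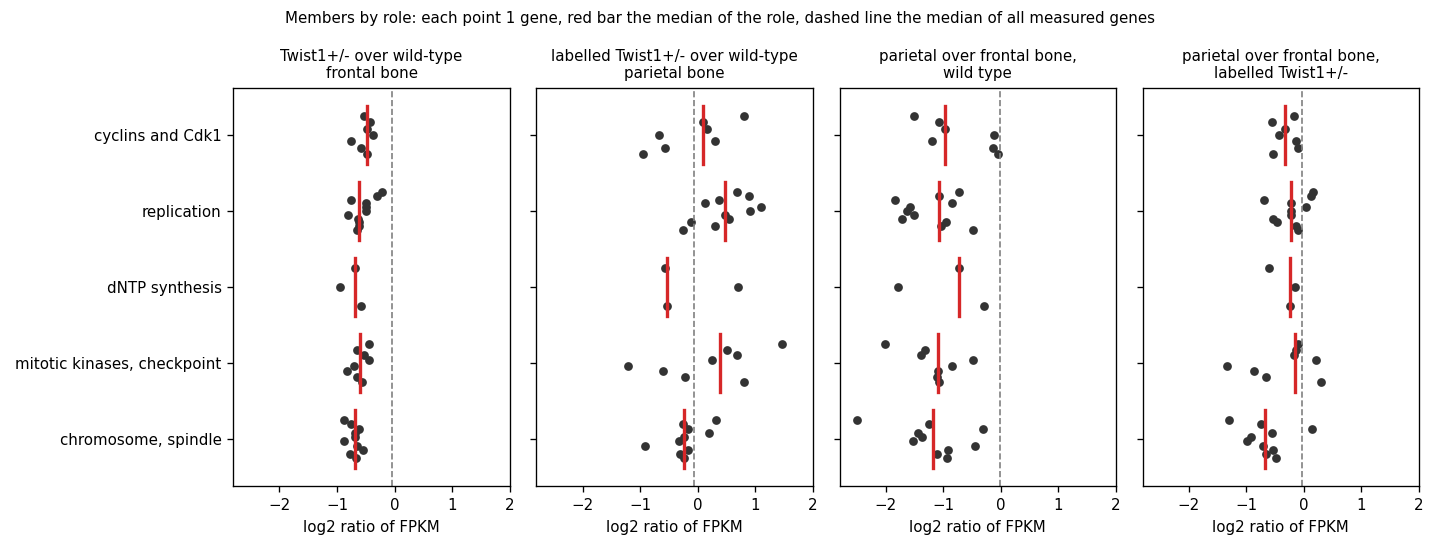
Log2 ratio of FPKM of each member (points) in the 4 comparisons (panels), by role (rows); the red bar is the median of the role and the dashed line the median of all measured genes. The points between genotypes in frontal bone lie close together between -0.94 and -0.21, those between the wild-type bones spread from -2.50 to -0.04, and those between the parietal libraries lie on both sides of 0.

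Cyclins bind and activate Cdk1 and its relatives. Cyclin E, encoded by Ccne1 and Ccne2, acts at the entry to S phase. Ccne1 was at 19.6, 13.6, 6.91 and 12.0 FPKM. Ccne2 stood at 15.7, 11.7, 7.45 and 7.99 FPKM. Both were lowest in wild-type parietal bone, and the log2 ratio between the parietal libraries was 0.80 for Ccne1 and 0.10 for Ccne2. Ccna2 encodes cyclin A2, which acts from S phase into early mitosis, and its levels were 85.4, 61.3, 43.5 and 48.6 FPKM. Cyclin A2 thus kept the order of Ccne1, with log2 ratios of -0.97 between the wild-type bones and -0.48 between genotypes in frontal bone.

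Of the genes of mitotic entry, 3 held the smallest differences between the wild-type bones. Cdk1, the kinase that starts mitosis, was at 40.4, 26.8, 36.8 and 24.8 FPKM. Ccnb1, its partner cyclin B1, was at 21.6, 16.6, 19.8 and 12.3 FPKM. Cdc25c, a phosphatase that activates Cdk1, was at 5.74, 4.15, 5.57 and 2.88 FPKM. For these 3 genes both wild-type libraries were above both libraries labelled Twist1+/-, and the log2 ratio between the wild-type bones was only -0.13, -0.12 and -0.04. Ccnb2, the other B-type cyclin, had the commonest order instead, at 60.3, 35.7, 26.5 and 32.7 FPKM. The ratio of Ccnb1 to Ccnb2 in FPKM was accordingly 0.748 in wild-type parietal bone and 0.358 to 0.466 in the other libraries. Of all stretches of 75 bases, the read length, in the Ccnb1 transcript, 49.7% also matched other places in the genome, so how the reads of Ccnb1 were shared out is uncertain, while Cdk1 and Cdc25c shared 0% of theirs.

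E2f1, a factor that switches on S phase genes, was at 10.9, 9.47, 6.59 and 10.6 FPKM. Cdt1, which loads the MCM helicase at origins, was at 23.2, 18.8, 11.0 and 20.5 FPKM. These 2 genes showed the smallest differences between genotypes in frontal bone (log2 ratios of -0.21 and -0.31), and in each of them the library labelled Twist1+/- parietal was second to wild-type frontal bone. Cdc6, the ATPase that works with Cdt1, differed more, at 13.3, 7.85, 3.73 and 4.83 FPKM, and its wild-type parietal level was 3.58-fold lower than the frontal one. Cdc45, a part of the active helicase at the fork, was at 15.1, 10.7, 8.48 and 9.20 FPKM. All 4 were higher in the library labelled Twist1+/- parietal than in wild-type parietal bone, by 0.12 (Cdc45) to 0.90 (Cdt1) on the log2 scale.

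Mcm2 to Mcm7 encode the 6 subunits of the ring-shaped replicative helicase, which are assembled in equal number. Mcm2 was at 36.6, 25.8, 12.3 and 26.3 FPKM. Mcm3 was at 36.6, 25.8, 11.8 and 22.1 FPKM. Mcm4 was at 36.7, 21.0, 13.0 and 18 FPKM. In wild-type frontal bone these 3 subunits were thus almost level, and in wild-type parietal bone all 3 were lower, by 2.83-fold (Mcm4) to 3.09-fold (Mcm3). Mcm5 was at 42.7, 27.4, 13.0 and 19.0 FPKM. Mcm6 was at 61.8, 40.3, 31.9 and 29.4 FPKM. Mcm7 was at 65.1, 42.7, 31.7 and 39 FPKM. Mcm6 and Mcm7 were the most abundant subunits in each library and differed less between the wild-type bones (log2 ratios of -0.96 and -1.04) than the other 4 (-1.50 to -1.72). The mean level of Mcm6 and Mcm7 over the mean level of Mcm2 to Mcm5 was 1.66 in wild-type frontal, 1.66 in Twist1+/- frontal and 1.6 in labelled Twist1+/- parietal bone, but 2.54 in wild-type parietal bone. Wild-type parietal bone therefore stood apart from the 3 other libraries in this ratio. For Mcm7, 14.5% of the 75-base stretches matched another place in the genome, and for Mcm6 0%.

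Pcna, the sliding clamp of the DNA polymerases, was the most abundant member in every library, at 149, 95.1, 106 and 88.9 FPKM. It was higher in wild-type parietal than in Twist1+/- frontal bone, unlike the MCM genes, with a log2 ratio of -0.49 between the wild-type bones. Of its 75-base stretches 44.3% matched another place in the genome.

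Ribonucleotide reductase makes the deoxynucleotides for replication, with a large subunit encoded by Rrm1 and a small subunit encoded by Rrm2, the latter broken down after S phase. Rrm1 was at 77.3, 48.2, 46.8 and 31.8 FPKM. Rrm2 was at 132, 69.0, 38.5 and 62.3 FPKM. Rrm1 was lowest in the library labelled Twist1+/- parietal and Rrm2 in wild-type parietal bone, and Rrm2 was 3.43-fold lower in wild-type parietal than in frontal bone. The ratio of Rrm2 to Rrm1 in FPKM was 1.71 in wild-type frontal, 1.43 in Twist1+/- frontal, 0.823 in wild-type parietal and 1.96 in labelled Twist1+/- parietal bone, so that the small subunit was the lower one only in wild-type parietal bone. Tyms, thymidylate synthase, was at 14.0, 9.35, 11.4 and 7.90 FPKM and had a small difference between the wild-type bones, with a log2 ratio of -0.29.

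**Figure D3:**
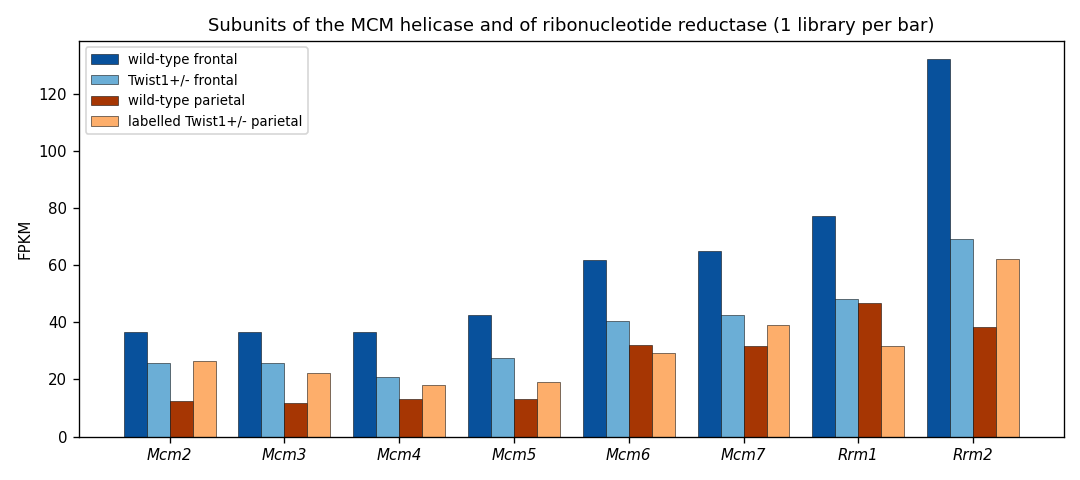
Level in FPKM (y axis from 0) of the MCM helicase subunits and of Rrm1 and Rrm2, 1 bar a library. In wild-type parietal bone Mcm2 to Mcm5 stand at 11.8 to 13.0 FPKM while Mcm6 and Mcm7 stand at 31.9 and 31.7 FPKM, and Rrm2 is lower than Rrm1 only there.

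Plk1 and the Aurora kinases drive spindle assembly and chromosome segregation. Plk1 was at 23.3, 17.1, 5.79 and 15.9 FPKM. Its wild-type parietal level was 4.03-fold lower than the frontal level and 2.75-fold lower than that of the library labelled Twist1+/- parietal, the largest higher value of any member between the parietal libraries. Aurka, the kinase of the spindle poles, was at 26.0, 16.6, 10.5 and 15 FPKM. Aurkb, the kinase of the chromosomal passenger complex, was at 24.2, 16.7, 9.27 and 14.8 FPKM. Birc5, or survivin, a partner of Aurkb in that complex, was at 86.4, 63.5, 61.8 and 73.5 FPKM. The 3 kinases shared the commonest order, whereas Birc5 differed by less than 1.5-fold in each comparison.

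The spindle checkpoint holds cells until each chromosome is attached, and its genes did not move together between the parietal libraries. Ttk, the checkpoint kinase also called Mps1, was at 6.74, 4.11, 3.76 and 1.62 FPKM. Bub1, a kinase of the kinetochore, was at 10.8, 6.11, 5.08 and 3.34 FPKM. Bub1b, which encodes the inhibitor BubR1, was at 17.8, 11.3, 8.31 and 7.16 FPKM. These 3 were lowest in the library labelled Twist1+/- parietal bone, with log2 ratios to wild-type parietal bone of -1.21, -0.61 and -0.22. Cdc20, the activator of the anaphase-promoting complex that the checkpoint restrains, was lowest in wild-type parietal bone instead, at 25.9, 17.6, 12.3 and 21.6 FPKM, with a log2 ratio of 0.81. The ratio of Plk1 to Ttk in FPKM was 1.54 in wild-type parietal and 9.81 in labelled Twist1+/- parietal bone, against 3.46 and 4.15 in wild-type and Twist1+/- frontal bone.

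Mki67, the gene of the proliferation marker Ki-67 that coats mitotic chromosomes, was at 67.5, 36.6, 11.9 and 14.9 FPKM. It was lower in wild-type parietal than in frontal bone by 5.68-fold, the largest difference of any member, and it lay in 2 separate ranges, both frontal libraries above both parietal ones. Top2a, the topoisomerase that untangles sister chromatids, was at 70.5, 41.9, 29.8 and 25.1 FPKM. Cenpa, the histone H3 variant of the centromere, was at 57.1, 37.1, 46.0 and 40.9 FPKM, the only member lowest in Twist1+/- frontal bone. Cenpe, a kinetochore motor, was at 7.01, 4.33, 2.58 and 2.95 FPKM, and Cenpf, a large kinetochore protein, at 7.30, 4.53, 2.82 and 2.40 FPKM. Apart from Cenpa, each of these genes was higher in both frontal libraries than in either parietal library.

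Of the 5 motors and spindle proteins, 4 shared 1 order. Kif11, the motor that separates the spindle poles, was at 32.2, 17.6, 11.1 and 8.93 FPKM. Nusap1, which bundles spindle microtubules, was at 38.5, 22.5, 17.8 and 14.4 FPKM. Tpx2, which activates Aurka on the spindle, was at 23.7, 14.9, 12.4 and 10.6 FPKM. Kif23, a motor of the central spindle needed for cytokinesis, was at 13.7, 9.38, 7.21 and 6.45 FPKM. In these 4 genes the frontal libraries were above the parietal ones and the library labelled Twist1+/- parietal was lowest. Kif20a, another cytokinesis motor, was at 17.3, 11.0, 12.8 and 6.72 FPKM, so wild-type parietal bone came second. Of the 10 genes of this group 8 were lower in the library labelled Twist1+/- parietal than in wild-type parietal bone, while of the 11 S phase genes 9 were higher, with group medians of -0.23 and 0.48 on the log2 scale.

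The base composition of the transcripts moved with this division. Across the 39 members, the log2 ratio between the parietal libraries and the GC content of the transcript had a Spearman rho of 0.68, and across 12550 measured genes with a GC value it was 0.55. These values are across genes, which share the libraries and are not independent replicates. Of the 19 members with a GC content above 47.8%, the median of the members, 15 were higher in the library labelled Twist1+/- parietal, with a median log2 ratio of 0.51, and of the 20 at or below it 14 were lower, with a median of -0.24. With the median log2 ratio of genes of similar GC content subtracted, in 20 groups of genes, the members had a median of 0.33 and 9 of 39 were below 0, and all 11 S phase genes were above 0 (median 0.35). Of the 10 chromosome, centromere and spindle genes, 8 were below 0 on the deposited scale and 1 with GC subtracted (median 0.28), so the gap between the medians of these groups was smaller. In that case 9 members changed sign, all from below to above 0: Mcm6, Pcna, Top2a, Cenpa, Cenpf, Kif11, Kif23, Nusap1 and Tpx2, whose values ran from 0.10 (Tpx2) to 0.36 (Cenpf). The part of base composition in the division was not tested otherwise. The extremes between the parietal libraries, Plk1 and Ttk, also lay far apart in composition, with 56% and 43.1% GC in their transcripts. Plk1 is at chr7:129302951-129313389 and Ttk at chr9:83728296-83765997 (mm9, plus strand, GENCODE M1), and 120 bases of the coding sequence of each, with G and C in capitals, are shown for comparison, from coding base 112 to 231 of Plk1 and from 88 to 207 of Ttk:
Plk1: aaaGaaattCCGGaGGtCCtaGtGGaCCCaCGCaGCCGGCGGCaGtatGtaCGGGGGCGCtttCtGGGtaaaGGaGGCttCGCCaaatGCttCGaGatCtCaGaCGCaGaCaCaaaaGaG
Ttk: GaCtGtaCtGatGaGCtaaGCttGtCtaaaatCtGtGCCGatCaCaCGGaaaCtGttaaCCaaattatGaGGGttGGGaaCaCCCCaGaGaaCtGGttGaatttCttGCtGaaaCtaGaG
Of these bases, 67 were G or C in Plk1 and 52 in Ttk.

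Between genotypes in frontal bone, the members' rho with GC content was 0.53 and that of 13003 measured genes 0.11, and all 39 members stayed below 0 with GC subtracted (median -0.56). Between the wild-type bones it was -0.11 for the members and -0.14 for 12848 genes, and again all 39 stayed below 0 (median -1.10). Between the libraries labelled Twist1+/- it was 0.66 for the members and 0.41 for 12975 genes. Transcript length there had a rho of -0.72 for the members and -0.41 for all genes, so the long, AT-rich transcripts had the lower ratios. Between the wild-type bones the rho with length was -0.27 for the members and -0.29 for all genes. Between genotypes in frontal bone it was -0.43 and -0.10, and between the parietal libraries -0.25 and -0.02. With GC and length subtracted together, all 39 members stayed below 0 between the wild-type bones and between genotypes in frontal bone.

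**Figure D4:**
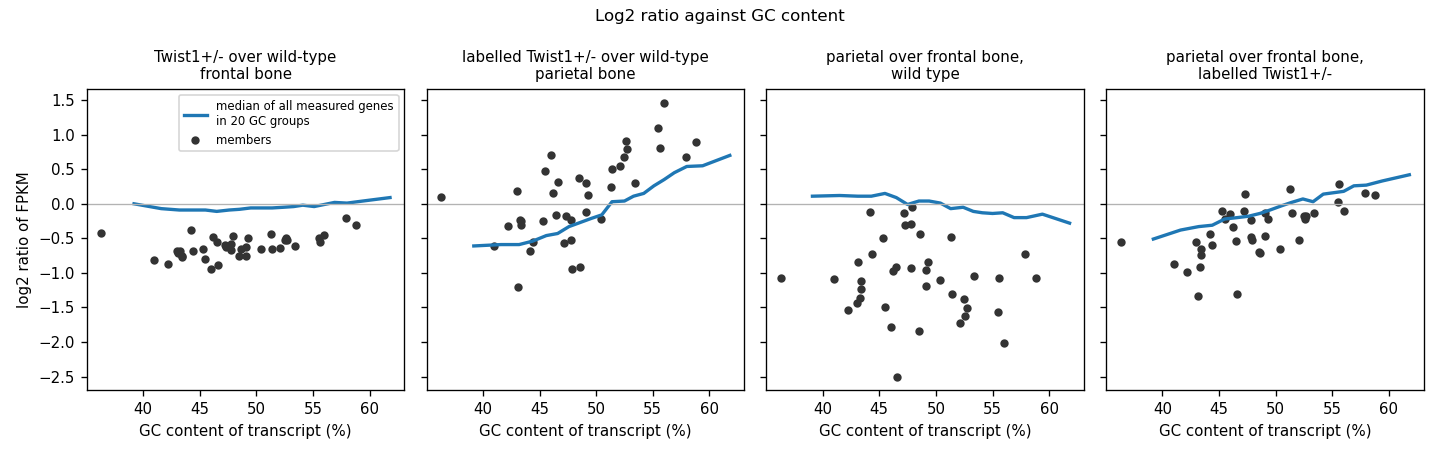
Log2 ratio of FPKM (y axis) against the GC content of the transcript in percent (x axis) in the 4 comparisons; points are the 39 members and the blue line joins the medians of all measured genes in 20 GC groups. Between the parietal libraries the points follow the rise of the line (rho of 0.68), whereas between genotypes in frontal bone and between the wild-type bones the line is nearly flat and the members lie under it.

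Other genes of the pathway, 110 in 6 lists, were set beside the members. Of 109 measured in a library, 87 were highest in wild-type frontal bone, against 27.0% of all genes that could be ordered. Between the wild-type bones 90 of 109 were lower in parietal bone, against 50.5% of all measured genes, with a median log2 ratio of -0.59. Past 3-fold were 8 lower and 2 higher, against 9.20% and 4.07% of all measured genes. The lower ones included E2f8, a late repressor of E2F targets (15.1, 9.59, 2.98 and 6.23 FPKM), Uhrf1, which helps to copy DNA methylation at replication (log2 ratio of -1.92), and Orc1, a subunit of the origin recognition complex (-1.89). The larger of the 2 higher ones was Cdkn1c, which encodes the Cdk inhibitor p57, at 23.7, 25.9, 155 and 44.2 FPKM. Cdkn2b, the gene of the inhibitor p15, was the other, at 0.813, 1.85, 3.02 and 2.06 FPKM. The Cdk inhibitors as a list did not share this direction: of 6 measured, 3 were lower in wild-type parietal bone, with a median of 0.04. In frontal bone 102 of 109 were lower in Twist1+/- bone, against 55.4% of all measured genes, with a median of -0.47. Past 3-fold were 0, against 0.725% of measured genes lower and 3.17% higher. The 40 other mitotic genes and the 36 other replication genes were all lower there, with medians of -0.61 and -0.45, whereas the 6 G1 cyclins and Cdks, which act before the commitment to S phase, had a median of -0.21. Between the parietal libraries the median was -0.14, against -0.06 for all measured genes. In the library labelled Twist1+/-, 66 of 108 were lower, against 53.1% of all measured genes. Cdkn1c was past 3-fold lower, as were 2.94% of measured genes. With GC subtracted the median was 0.17, on the other side of 0. Lastly, between the libraries labelled Twist1+/- the median was -0.20, with Cdk6, a G1 kinase, past 3-fold lower in parietal bone. Of all measured genes, 3.24% were lower by that much.

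Markers of the cells in and around these bones also differed between the libraries, in orders that varied from list to list. The erythroid list, genes of red cell precursors, had 11 of 12 genes in the tables (Ahsp was not matched), none of them at 0, and its summed level was 1679, 831, 635 and 806 FPKM. This is the order of the summed members. Between the wild-type bones 10 of 11 erythroid genes were lower in parietal bone by more than 3-fold (median log2 ratio of -2.45), against 9.20% of measured genes. In frontal bone 11 of 11 were lower in Twist1+/- than in wild-type bone (median of -1.0), against 55.4%. Between the parietal libraries the erythroid median was 1.08, with 10 of 11 higher in the library labelled Twist1+/-, against 46.9%. Between the libraries labelled Twist1+/-, 7 of 11 were lower in parietal bone (median of -0.22), against 52.4%. Not all erythroid genes thus kept the order of the sum. B-lineage precursor genes, 12 of 12 found, summed to 336, 324, 192 and 330 FPKM, and granulocyte precursor genes, 7 of 7 found, to 552, 608, 148 and 492 FPKM. The sums of both lists were lowest in wild-type parietal bone, like 21 of the members. Gene by gene, 9 of 12 B-lineage precursor genes and 7 of 7 granulocyte precursor genes were lower in wild-type parietal than in wild-type frontal bone. The share of all measured genes was 50.5%. In Twist1+/- frontal bone the median log2 ratios of both lists to the wild type were -0.06 and 0.14, where that of the members was -0.62. The mature neutrophil list summed to 15417, 17374, 8255 and 10487 FPKM. Unlike the members, 0 of its 9 genes were lower in Twist1+/- than in wild-type frontal bone (median log2 ratio of 0.30). Between the wild-type bones 8 of 9 were lower in parietal bone (median of -1.06).

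Markers of bone cells and of neighbouring tissue followed other orders. The osteoblast and osteocyte list summed to 10830, 8693, 9200 and 13204 FPKM over 10 genes. Col1a1 and Col1a2 were left out because they are listed at 0 in each library but wild-type parietal bone. Most of each sum was 1 gene, Bglap, at 6811, 5371, 5220 and 7982 FPKM. The median level of the list was 93.1, 108, 148 and 199 FPKM, higher in wild-type parietal than in wild-type frontal bone. Between these 2 libraries its median log2 ratio was 0.28, with 4 of 10 genes lower in parietal bone. The 7 osteoclast genes summed to 2562, 3212, 9022 and 6651 FPKM, higher in both parietal libraries. Muscle genes, 10 of 10 found, summed to 126, 1453, 3911 and 1915 FPKM. Brain and meninges genes, 10 of 10 found, summed to 2416, 737, 152 and 829 FPKM, and the 9 epithelial genes to 164, 718, 8 and 833 FPKM. Wild-type frontal bone, in which the members were highest, thus also had the highest brain and meninges sum and the lowest muscle sum, and wild-type parietal bone the reverse. Most of that brain and meninges sum was 1 gene, Ptgds, at 1975, 327, 52.8 and 428 FPKM. The median level of the list was 48.4, 26.7, 5.69 and 16.6 FPKM. Of its 10 genes, 8 were lower in Twist1+/- than in wild-type frontal bone, against 55.4% of measured genes. Apart from Col1a1 and Col1a2, no gene of these lists was at 0 in any library. The part of these cells in the members' differences was not tested.

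**Figure D5:**
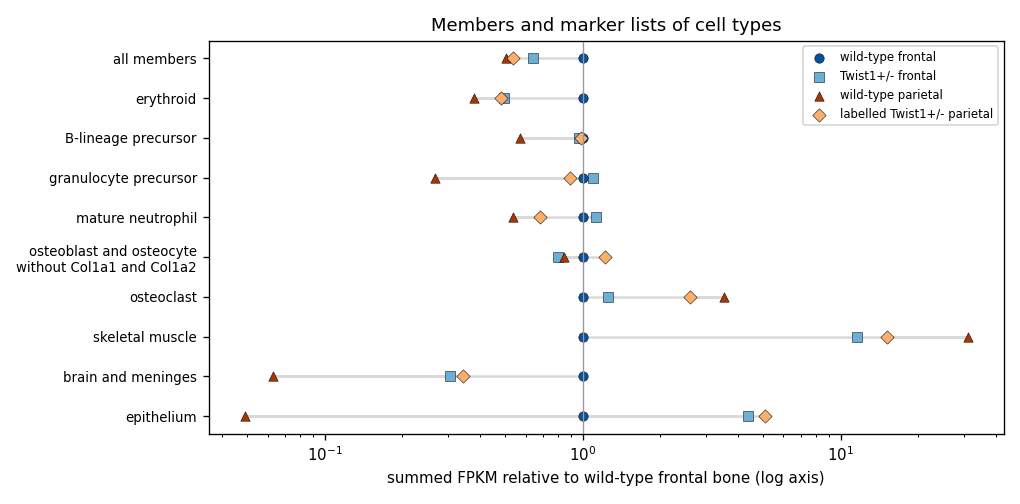
Summed FPKM of the members and of 9 cell type lists, relative to wild-type frontal bone (x axis, log scale); each point is 1 library. The members and the erythroid, B-lineage precursor and brain and meninges lists have all 3 other libraries to the left of wild-type frontal bone, whereas osteoclast and muscle genes have them to the right.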

How the data were processed

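The authors made 75-base single-end libraries, aligned the reads to mm9 with STAR 2.4.2a and quantified genes with Cufflinks 2.2.1 (Cuffdiff), as the study's methods and the submitters' processing notes give them. The deposited values are FPKM per gene, 1 table for each library, with no read totals. From these FPKM values, log2 ratios without a pseudocount were computed in Python 3.11.15 (pandas 2.3.3, numpy 2.4.6). A gene counted as measured at 1 FPKM or more in the higher library, and was called past 3-fold, past 2-fold or, added after seeing the data, past 1.5-fold, and a value of 0 against at least 1 FPKM counted as past the fold. Base composition and length were read from the GENCODE M1 transcript with the longest coding sequence, matched by symbol for 19330 of 23946 genes (80.7%) and for 39 of 39 members. The median log2 ratio of genes in 20 GC groups was subtracted as an alternative. Shared sequence was counted over stretches of 75 bases, in other coding transcripts and at other loci aligned with minimap2 2.31. The 3-fold calls and the GC subtraction were tried on simulated data with little noise and changes larger than any member's. Differences of the size seen in the members were not covered by that trial. Named were the members, Twist1, Gapdh and other cell cycle genes past 3-fold, at most 5 for each comparison by size. Ahsp, Bglap, Col1a1, Col1a2 and Ptgds were named where the count or sum of a list turned on them. The members and lists were chosen with earlier results of these data known. No test was run, since each group has 1 library.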

Additional observations from a re-analysis of the deposited data

Results flagged for a closer look

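In 2 members the log2 ratio of the libraries labelled Twist1+/- to wild type had opposite signs in the bones and passed 2-fold in 1 bone. For Plk1 it was 1.46 in parietal and -0.45 in frontal bone, a difference of 1.91. For Mcm2 it was 1.10 in parietal and -0.50 in frontal bone, a difference of 1.60. With GC subtracted the parietal ratios were 1.11 for Plk1 and 0.84 for Mcm2. Neither difference was tested, since each rests on 4 single libraries. The log2 ratio of Twist1 between the parietal libraries was -0.05 as deposited and -0.60 with GC subtracted. Of the 39 members, 21 had opposite signs in the bones and 18 the same sign. All 39 were below 0 in frontal bone, so these 21 are the members above 0 between the parietal libraries. There 46.9% of measured genes were above 0, and with GC subtracted 30 of 39 members were. The share of opposite signs over all genes was not counted.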

How the results depend on the processing

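The alternatives changed 1 choice at a time: a pseudocount of 1 or 0.1 FPKM, no floor or a floor of 10 FPKM, scaling to the same median ratio or Gapdh value, a 2-fold threshold, and GC groups subtracted; a 1.5-fold threshold, GC and length groups subtracted together, and the order of libraries under other scalings were added after seeing the data. The median log2 ratio of the members kept its sign in each comparison under each alternative. The count past 3-fold moved with the threshold: at 2-fold it was 3 between the parietal libraries, 23 between the wild-type bones and 2 between the libraries labelled Twist1+/-, and at 1.5-fold it was 14, 31 and 11, and 23 between genotypes in frontal bone, counts that the report sets beside the shares of all measured genes. For the 110 other pathway genes, the median between the parietal libraries went from -0.14 to 0.17 with GC subtracted. Wild-type frontal bone was highest for 39 members with Gapdh or GC subtracted and for 38 with the same median ratio, but the members lowest in the library labelled Twist1+/- parietal bone went from 17 to 8 with Gapdh and to 9 with GC subtracted, and the cause was not tested. Between the wild-type bones, Mcm3 went under 3-fold with a pseudocount of 1 FPKM (-1.55), GC subtracted (-1.58) or GC and length subtracted (-1.55), and Mcm5 with GC and length subtracted (-1.46), while Mcm4 (-1.65) and Kif11 (-1.65) passed it with GC subtracted, and 3 members with GC and length subtracted. Scaling to Gapdh, itself at 158, 170, 215 and 164 FPKM in wild-type frontal, Twist1+/- frontal, wild-type parietal and labelled Twist1+/- parietal bone, changed the count past 3-fold to 1 between the parietal libraries and to 16 between the wild-type bones, a count added after seeing the data. No paired analysis was possible because each group has 1 library. With 1 library a group and no read total for any single library, no error could be set beside any ratio.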
